A study of Mus musculus with 8 samples.

Results

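The LM and UM origins of an E11.5 mouse series were compared by their transcript levels, on 4 of its 8 Affymetrix arrays. The 4 arrays were chosen by their labels: 1 from LM control, 1 from LM mutant, 1 from UM control and 1 from UM mutant, all with head/neck as the source. The series compares FAK mutants with controls, FAK being focal adhesion kinase, a tyrosine kinase of integrin adhesion sites. The series title calls the controls wild type. Its other 4 arrays hold a control and a mutant of neural crest cells sorted by p75, pooled from 3 embryos per array, and of an origin named OFT. What LM and UM stand for is not written out, nor whether those cells were sorted, and their age is taken from the series title. The FAK allele, any Cre line, the strain and the number of embryos behind each LM or UM array are not given in the sources used here. Nothing says that the arrays of an origin are separate collections beyond their genotype labels. The control and mutant array of an origin served as its n = 2. The error behind each p-value is how far the mutant and control arrays differed from one origin to the next, so it is no measure of replicate embryos and may be technical in part.

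As background, the jaws form from neural crest cells that fill the maxillary and mandibular parts of the first pharyngeal arch. Endothelin signalling switches on Dlx5 and Dlx6 in the lower part of the arch, and these homeobox genes in turn support Hand2. The upper jaw and the midface lack that input and carry factors such as Alx1, Otx2 and Pou3f3 in their mesenchyme or in the neighbouring ectoderm and brain. The head muscle precursors, cranial ganglia, surface ectoderm and vessels lie among the crest cells. In bulk RNA from such a region, fewer cells of a type and less RNA per cell cannot be told apart.

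Intensities are linear values for 1 probe set per gene, the brightest. Differences are LM minus UM on the scale of log2(intensity + 32), on which an intensity of 0 is 5 and the fold of a dim gene is understated. Values after ± are limma's moderated SE with n = 2 arrays per origin. A gene was called at an adjusted p under 0.05 by limma with Benjamini-Hochberg adjustment over all 13543 genes tested. Of these genes 210 were called, which is 1.55%. There were 100 higher in LM (0.738%) and 110 lower (0.812%). A gene near 19.4, the intensity below which values counted as low, is close to background. Before adjustment, 1152 genes (8.51%) had a p under 0.05.

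The 4 arrays were alike in most technical values. Median log2 values were 6.02 to 6.08. Gapdh read at its 3' end over its 5' end gave 0.700 to 0.856, and Actb gave 1.42 to 1.92. The spike-in controls were brighter on the LM control array, at a geometric mean of 2936, while the other LM and UM arrays had 1281 to 1444. The p75 control and mutant arrays, which share in the error behind each p-value, had Gapdh ratios of 2.82 and 4.91. Their 18S rRNA intensities were 1915 and 4774, against 170 to 236 on the LM and UM arrays. Across the 13543 genes the LM mutant correlated at 0.983 with the UM control and at 0.981 with the LM control, which describes these arrays and carries no test. The probe set annotation used here names 0 probe sets by Ptk2 alone, the gene of FAK, so the mutated gene was not examined.

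The label genes separated the origins on every array. Hand2, a basic helix-loop-helix factor of the lower jaw and heart, had intensities of 1119 in LM control, 936 in LM mutant, 11.8 in UM control and 33.0 in UM mutant. Its difference was 4.31 ± 0.22, with adjusted p = 1.7e-06 by limma. Its other 2 probe sets differed by 1.18 and 1.89, and over the alternatives its value ran from 2.46, as the mean of its probe sets, to 5.62 at a pseudocount of 1. Pitx1, a homeobox gene that marks the mandibular arch and the hindlimb, had 1032 and 1189 in LM and 124 and 161 in UM, a difference of 2.71 ± 0.18, and its other probe set differed by 1.68. Dlx5 had 876 and 765 in LM and 225 and 280 in UM, a difference of 1.59 ± 0.20. Both LM arrays lay above both UM arrays for these 3 genes. LM and UM arrays did not overlap for 34.8% of all genes tested.

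The other markers went the opposite way. Alx1, a homeobox gene of midfacial mesenchyme, had intensities of 264 in LM control and 284 in LM mutant against 2702 and 2588 in UM, a difference of -3.13 ± 0.17 with adjusted p = 1.7e-06 by limma. Otx2, a homeobox gene of the anterior head, had 4.0 and 0.624 in LM and 194 and 181 in UM, a difference of -2.68 ± 0.19. LM was near background for Otx2, and the size of that difference moved with the setting: it ran from -6.05 to -1.92 over the 18 alternative settings. On the OFT arrays Hand2 was also bright, at 1195 and 1030, while Pitx1 was at 9.45 and 8.20 and Alx1 at 126 and 145. Of the 5 markers, Hand2, Pitx1, Alx1 and Otx2 passed in all 18 alternative settings. Dlx5 missed the threshold in 1, a pseudocount of 1, with adjusted p = 0.084 by limma.

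The start-site windows of Hand2 and Otx2 are shown because these genes led their direction among those with an entry in the RefSeq-derived promoter table (build GRCm38.p6); Alx1 had no entry. Each window runs 5′ to 3′ from 250 bases before to 50 bases after the start. Capitals mark matches on either strand to the homeodomain core TAATTA, the bicoid-class motif TAATCC or the E-box CATCTG. A match describes the letters and says nothing of binding.
Hand2, chr8:57320733-57321032, plus strand: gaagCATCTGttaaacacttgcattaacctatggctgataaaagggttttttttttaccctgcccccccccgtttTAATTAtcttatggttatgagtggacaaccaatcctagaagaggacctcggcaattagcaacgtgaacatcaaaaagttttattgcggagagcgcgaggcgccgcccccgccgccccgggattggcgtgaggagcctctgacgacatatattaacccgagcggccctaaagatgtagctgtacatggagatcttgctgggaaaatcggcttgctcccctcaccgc
Otx2, chr14:48667595-48667894, minus strand, the first of 4 starts in the table: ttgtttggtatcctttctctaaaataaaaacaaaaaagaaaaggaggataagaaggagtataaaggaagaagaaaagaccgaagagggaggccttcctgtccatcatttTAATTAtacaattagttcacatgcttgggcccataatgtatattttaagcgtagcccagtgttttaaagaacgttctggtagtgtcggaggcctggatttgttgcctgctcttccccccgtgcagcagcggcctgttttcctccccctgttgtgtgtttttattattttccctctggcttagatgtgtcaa
The Hand2 window held 1 TAATTA and 1 CATCTG, and the Otx2 window had 1 match, to TAATTA. That motif is its own reverse complement, and none of the searched motifs overlapped another in these windows. A TAATTA was present in at least 1 window of 6.12% of all 27025 genes in the table, of 8.70% of the 69 genes higher in LM that had an entry and of 8.64% of the 81 lower genes. TAATCC was present for 8.14%, 11.6% and 3.70% in the same order, and CATCTG for 19.2%, 26.1% and 17.3%. In all, 150 of the 210 called genes had an entry.

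Among the 15 genes with the largest increase in LM, several stood at background in UM. Gpr50, an orphan receptor related to the melatonin receptors, had intensities of 394 and 258 in LM control and mutant and 0.964 and 1.14 in UM, a difference of 3.41 ± 0.19, and its other probe set differed by 1.44. Dlx1as, an antisense transcript of the Dlx1 locus, had 464 and 582 in LM and 33.0 and 29.0 in UM, a difference of 3.13 ± 0.21. Its UM values were above the low-value intensity of 19.4. Rtl3, a gene derived from a retrotransposon Gag sequence, had 320 and 283 in LM and 18.7 and 2.46 in UM. The LM arrays were several-fold above the UM arrays for each of them.

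Nr5a2, an orphan nuclear receptor gene, had 231 and 169 in LM against 14.9 and 17.8 in UM, a difference of 2.25 ± 0.19. Its other 3 probe sets differed by -0.02 to 1.71. Bnc1, which encodes the zinc finger protein basonuclin, had 439 and 508 against 98.4 and 62.8, a difference of 2.18 ± 0.19. Nrk, a protein kinase gene, had 878 and 644 against 152 and 165, a difference of 2.04 ± 0.23, and its other 2 probe sets differed by 1.38 and 1.5. The noncoding 3110099E03Rik differed by 2.31 ± 0.25, with 98.6 and 221 in LM. Actc1, Acta2, Myog, Tnnt1, Dlk1 and Hoxa2 completed this group with Hand2 and Pitx1 and are described with their lists. Of the 15 genes, 3110099E03Rik, Myog, Tnnt1, Rtl3 and Nrk missed the threshold at a pseudocount of 1. With s-type probe sets left out, Acta2 was read from another probe set, which lay too low to be tested. Acta2 passed in the other 17 alternatives, and the rest of the 15 genes passed in all 18.

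**Figure D1:**
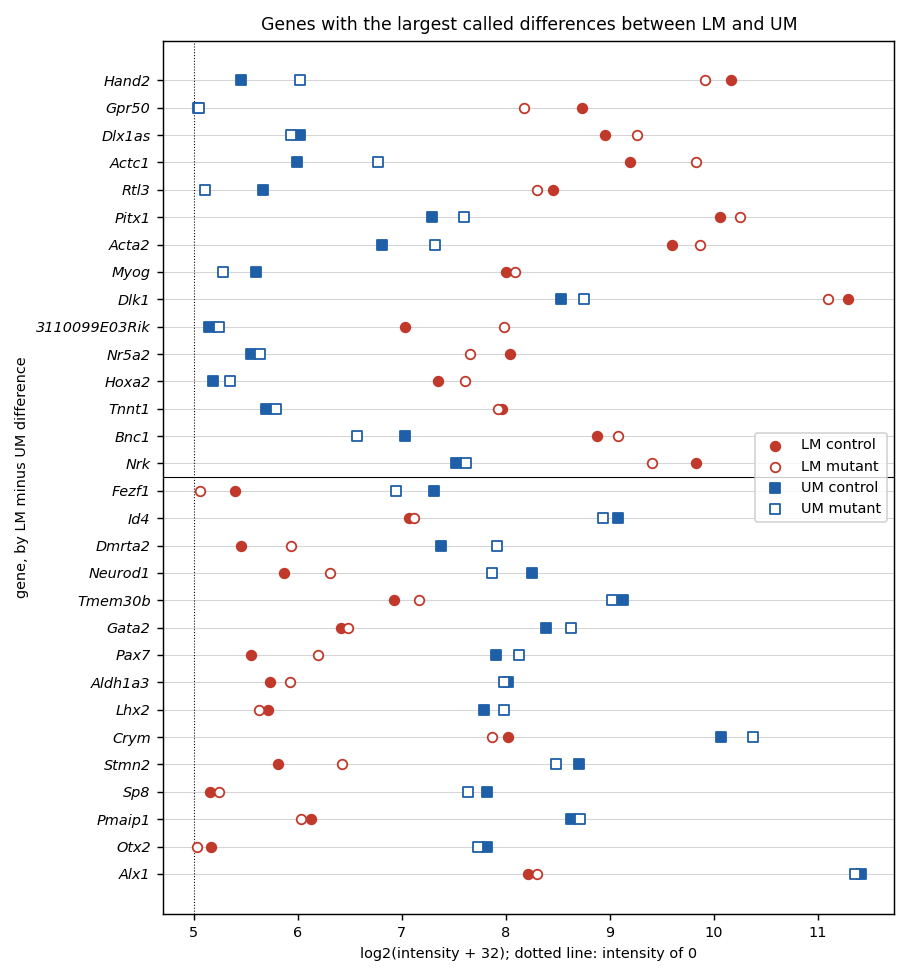
Values of log2(intensity + 32) on the 2 LM arrays (circles) and the 2 UM arrays (squares), filled for controls and open for FAK mutants, for the 15 genes with the largest increase in LM (top) and the 15 with the largest decrease (bottom). LM and UM arrays do not overlap for any of these genes, nor for 34.8% of all genes tested. Hand2 has the widest separation at 4.31 on the brightest probe set of each gene, its other probe sets being at 1.18 and 1.89.

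Among the 15 genes with the largest decrease in LM was Sp8, a zinc finger factor of the midface and limb bud. It had intensities of 3.59 and 6.0 in LM control and mutant against 194 and 166 in UM, a difference of -2.53 ± 0.18. Pmaip1, which encodes the pro-apoptotic protein Noxa, had 37.9 and 33.4 against 363 and 387, a difference of -2.59 ± 0.17. Crym, which encodes a thyroid hormone binding protein, had 228 and 201 against 1045 and 1297, a difference of -2.28 ± 0.18. In all 3 the UM arrays were the high ones and the genotypes lay close together.

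Gata2, a zinc finger transcription factor gene, had 53.2 and 57.2 in LM and 303 and 364 in UM, a difference of -2.06 ± 0.21. Tmem30b, a subunit gene of lipid flippases, differed by -2.03 ± 0.20. Dmrta2, a DM domain factor of the forebrain and olfactory region, had 11.9 and 29.4 against 134 and 209, a difference of -1.94 ± 0.22. Alx1, Otx2, Pax7, Stmn2, Neurod1, Lhx2, Fezf1, Aldh1a3 and Id4 completed this group. Of the 15 genes, Alx1, Otx2, Pmaip1, Sp8, Crym, Gata2, Tmem30b, Aldh1a3 and Id4 passed in every alternative.

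Genes of lower jaw patterning were more often higher than lower in LM where they passed. The list had 23 genes, of which 21 had a probe set and 20 were tested, and 10 rose and 2 fell. Its median difference was 0.99, against -0.00 over all genes tested. For this list and those below, the share over all genes tested was 0.738% higher and 0.812% lower. The Dlx genes of the lower arch rose together. Dlx6 had intensities of 105 and 132 in LM and 35.3 and 8.77 in UM, a difference of 1.51 ± 0.23. Dlx6os1, the long noncoding transcript of the Dlx5 and Dlx6 locus, had 446 and 569 against 97.1 and 134, a difference of 1.87 ± 0.22. Dlx3 and Dlx4, a neighbouring pair of Dlx genes, differed by 1.09 ± 0.20 and 1.03 ± 0.20.

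Of the other members of the list, Cited1, Gbx2 and Gsc rose as well. Cited1, a transcriptional coregulator gene, had 605 and 407 in LM and 90.4 and 103 in UM, a difference of 2.04 ± 0.20. Gbx2, a homeobox gene, had 77.8 and 64.8 against 2.68 and 11.8, a difference of 1.40 ± 0.19. Gsc, the goosecoid homeobox gene, had 134 and 114 against 50.7 and 52.3, a difference of 0.89 ± 0.18 with adjusted p = 0.027 by limma. Tbx2, a T-box repressor gene, and Prrx2, a paired-related homeobox gene, were the fallers, at -1.04 ± 0.17 and -0.98 ± 0.20.

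Members that did not pass had values of either sign. Edn1, the endothelin ligand that starts lower jaw identity, had 23.9 and 23.0 in LM and 7.79 and 1.19 in UM, a difference of 0.61 ± 0.21 with adjusted p = 0.31 by limma. Its arrays did not overlap, which was also true of 34.8% of all genes tested. Hand1 was at 0.95 ± 0.23 and Nkx2-3 at 1.04 ± 0.25, with adjusted p = 0.076 and 0.067 by limma. Foxf1, Rgs5 and Bmper had differences of 0.39 to 0.60, Isl1 of -0.10 and Tbx3 of -0.50. Nkx3-2 lay too low to be tested, and Ednra was not analysed here. Of the 10 increases, Hand2, Pitx1 and Cited1 passed in all 18 alternatives, and only these 3 passed at a pseudocount of 1. Dlx3, Dlx4, Dlx6 and Gsc also missed the threshold when certain single LM or UM arrays were left out. Over the alternatives the difference of Dlx6 ran from 1.10 to 2.65 and that of Gsc from 0.70 to 1.24. Neither Tbx2 nor Prrx2 passed without the LM control, the UM control or the UM mutant array.

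Genes of upper jaw patterning split. Of 22 listed genes 21 had a probe set and were tested, 7 fell in LM and 2 rose, and the median was -0.30. That median was 0.03 on the control arrays and -0.67 on the mutant arrays, and 10 members lay above 0 and 11 below. Pax7 and Pax3, paired-box genes of crest and midface, fell. Pax7 had 15 and 41.3 in LM and 208 and 248 in UM, a difference of -2.14 ± 0.20 with its other probe set at -1.09, and Pax3 had 142 and 207 against 646 and 568, a difference of -1.65 ± 0.24. Six2, a homeobox gene of facial mesenchyme, had 173 and 152 against 511 and 530, a difference of -1.51 ± 0.17.

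Foxl2, a forkhead gene of the eyelid region, had 70.9 and 63.1 against 210 and 294, a difference of -1.51 ± 0.20, although its other probe set differed by -0.12. Tbx22, a T-box gene of the palate, had 213 and 207 against 463 and 502, a difference of -1.09 ± 0.17. With Alx1 and Otx2 these made the 7 decreases. The risers were Sim2, a helix-loop-helix PAS gene, at 1.03 ± 0.19 and Meis2, a TALE homeobox gene, at 0.84 ± 0.19. Meis2 had adjusted p = 0.044 by limma and missed the threshold in 13 of 18 alternatives.

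Among the members that did not pass, Pou3f3, a POU factor gene of the maxillary region, had 371 and 310 in LM and 570 and 662 in UM, a difference of -0.80 ± 0.20 with adjusted p = 0.084 by limma. Irx3 and Irx5 had values of -0.84 ± 0.19 and -0.74 ± 0.19. Meis1, Nr2f1, Zfp503 and Foxd1 had values of 0.67 to 0.86, and the remaining 5, Nr2f2, Fgf10, Shox2, Alx4 and Cyp26b1, lay between -0.30 and 0.36. Alx1, Otx2 and Six2 passed in every alternative, and the number of decreases was 6 without the UM mutant array, 7 without any other LM or UM array and 3 at a pseudocount of 1.

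Genes used in both jaws went both ways. Of 24 tested in a list of 26, 4 rose and 4 fell, with a median of -0.05. Osr1, an odd-skipped zinc finger gene, had 381 and 396 in LM and 95.0 and 98.6 in UM, a difference of 1.71 ± 0.19. Dlx1 had 680 and 403 against 145 and 236, a difference of 1.35 ± 0.27, while its neighbour Dlx2 had 244 and 271 against 117 and 158, a difference of 0.78 ± 0.20 that did not pass (adjusted p = 0.084 by limma). Barx1, a homeobox gene of the molar and stomach mesenchyme, was higher by 1.07 ± 0.23 and Twist2 by 0.99 ± 0.19.

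The fallers were the AP-2 genes and partners of tooth and palate development. Tfap2b had 149 and 237 in LM and 792 and 613 in UM, a difference of -1.72 ± 0.25, and Tfap2a differed by -1.14 ± 0.23. Pax9 differed by -1.06 ± 0.19 and Msx2 by -0.90 ± 0.19. Msx1 was close to the threshold, with 768 and 722 against 1211 and 1668, a difference of -0.90 ± 0.21 and adjusted p = 0.067 by limma. Lhx6 at 0.05 ± 0.20, Twist1 at -0.16 ± 0.20 and Gli3 at -0.17 ± 0.20 were among the members that did not pass. Osr1 alone passed in all alternatives. Without the LM control the counts were 1 higher and 1 lower, without the UM control 1 and 2, and without the UM mutant 4 and 1.

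**Figure D2:**
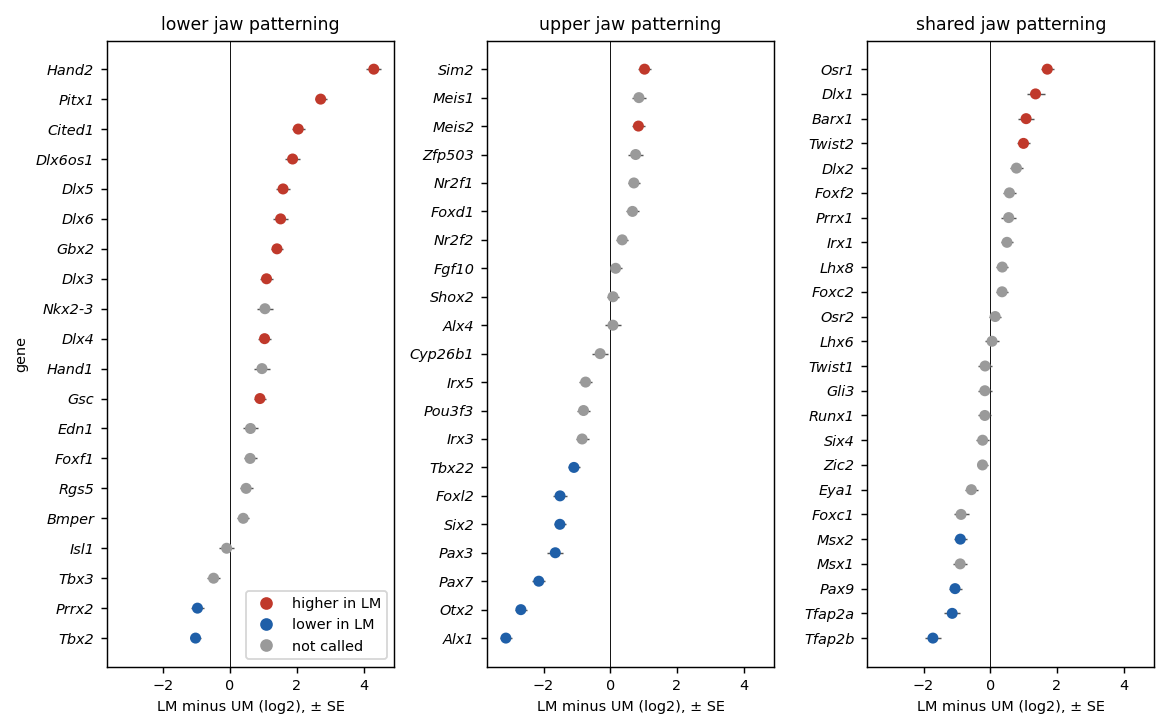
Difference LM minus UM on the log2 scale for each tested member of the lower, upper and shared jaw lists, with limma's moderated SE as bars (n = 2 arrays per origin); red is higher, blue lower and grey not called. The lower jaw list has 10 red and 2 blue members, the upper jaw list 2 and 7, and the shared list 4 and 4.

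Hox genes were higher in LM where they passed. Hox genes mark the second and more posterior pharyngeal arches, and the first arch carries none. Hoxa2, which sets second arch identity, had intensities of 131 and 163 in LM control and mutant and 4.39 and 8.63 in UM, a difference of 2.21 ± 0.23. Hoxb2 had 46.7 and 96.2 against 3.52 and 2.92, a difference of 1.51 ± 0.22. Hoxb3 had 60.9 and 152 against 10.7 and 14.5, a difference of 1.55 ± 0.27, and its other probe set differed by 0.37. The UM arrays were below the low-value intensity for these 3 genes. In all 3 of 11 tested Hox genes rose and 0 fell, with 12 of 14 listed having a probe set and a median of 0.38. Hoxa3, at 0.90 ± 0.23, did not pass (adjusted p = 0.095 by limma). Hoxa2 and Hoxb2 passed in every alternative. Hoxb3 did not pass without the LM mutant, the UM control or the UM mutant array.

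Many muscle genes were higher in LM. The skeletal muscle list had 27 tested members, of which 14 rose and 2 fell, with a median of 1.02. Over all genes tested 0.738% rose and 0.812% fell. Myogenic regulators rose together. Myog had 225 and 241 in LM and 16.4 and 6.92 in UM, a difference of 2.61 ± 0.26. Myf5 had 108 and 164 against 7.11 and 16.6, a difference of 1.93 ± 0.18, and Myod1 had 51.4 and 87.3 against 11.7 and 25.3, a difference of 1.0 ± 0.18. Msc and Tcf21, factors of the head muscle precursors, differed by 1.56 ± 0.20 and 1.66 ± 0.18.

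Several contractile genes rose with the regulators, while Acta1, Myh3, Myl4 and Des were tested and did not pass. Mymk, Cdh15, Chrna1, Chrng, Chrnb1, Tbx1 and Met did not pass either, and Myf6 lay too low to be tested. Of the 27 tested members of the list, 24 lay above 0 and 3 below. Actc1, the cardiac alpha actin also used by embryonic skeletal muscle, had 552 and 875 against 31.8 and 77.0, a difference of 3.12 ± 0.19. Tnnt1, the slow skeletal troponin T gene, had 219 and 211 against 19.8 and 23.3, a difference of 2.20 ± 0.30. Myl1, Ttn, Tnni1, Tnnc2 and the fusion gene Mymx differed by 1.04 to 1.84, and Ebf3 and Capn6 by 1.19 and 1.02. The fallers were Lhx2 and Pax7, which are also genes of placodes, brain and midface. Summed over the list, intensities were 5960 and 6438 in LM and 2420 and 2695 in UM. The part of muscle cells in other differences was not tested. Actc1, Myf5, Msc and Myl1 passed in all alternatives, and 8 increases were left without the UM mutant array and 6 at a pseudocount of 1.

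Cardiac and smooth muscle lists moved little. Of 18 cardiac genes 2 rose, Tnnc1 at 0.97 ± 0.18 and Tnnt2 at 0.84 ± 0.19, both also made by embryonic skeletal muscle, with a list median of 0.10. Tnnt2 missed the threshold without any 1 of the 4 LM and UM arrays, and Tnnc1 without 3 of them, the LM control, the UM control and the UM mutant. Acta2, the smooth muscle alpha actin gene, had 742 and 901 in LM and 80.6 and 127 in UM, a difference of 2.67 ± 0.19. That value came from a probe set of the s type, whose probes can match several transcripts, and the other 2 probe sets of Acta2 differed by -0.09 and 0.21. Synpo2 was the other riser among 16 smooth muscle and pericyte genes tested, at 0.95 ± 0.21.

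Some imprinted growth genes were higher in LM. These genes are read from a single parental copy and several control growth before birth. Of 15 tested 7 rose and 0 fell, with a median of 0.84. The list as read also held Nckap1, which is not an imprinted growth gene. It did not pass but is counted among the 15 and in the median. Dlk1, a ligand related to the Notch ligands, had 2467 and 2159 in LM control and mutant and 338 and 398 in UM, a difference of 2.55 ± 0.18. That probe set is of the s type, and the other probe set of Dlk1 differed by 0.94. Igf2, the fetal growth factor gene, had 8736 and 5706 against 2021 and 2786, a difference of 1.56 ± 0.23. Cdkn1c, a cell cycle inhibitor gene, had 4978 and 3836 against 1401 and 1702, a difference of 1.48 ± 0.24. The LM control was the highest of the 4 LM and UM arrays for all 3.

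Peg3 differed by 1.6 ± 0.21, with its other 4 probe sets at 0.00 to 1.71, Magel2 by 1.37 ± 0.17, the noncoding Meg3 by 1.04 ± 0.18 and Plagl1 by 0.96 ± 0.19. Ndn, Mest and Igf2r had values of 0.62 to 0.84 that did not pass. Sgce, at -0.17 ± 0.20, was the member below 0. Dlk1 and Magel2 passed in all alternatives. The count was 4 without the LM control array, 3 without the UM control array and 2 at a pseudocount of 1.

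Some called genes lay beside each other in the genome. Along the GRCm38.p6 gene order, 209 called genes had a place, and 21 pairs of called genes were next to each other among the genes tested. Of these pairs 20 had the same direction. Over all 13493 neighbouring pairs of tested genes 51.6% had differences of the same sign. Most of those pairs hold genes that were not called, so that share is no like background for the called pairs. Whether called genes lay together more often than other genes was not tested. Several of the called pairs are a gene and an antisense or opposite-strand transcript, such as Dlx1 with Dlx1as, Igf2 with Igf2os and Foxl2 with Foxl2os. Dlx genes gave 5 of the pairs, Dlx1 with Dlx1as, Dlx5 with Dlx6, Dlx6 with Dlx6os1, Dlx3 with Dlx4 and Dlx4 with Dlx4os. The imprinted run of Dlk1, Meg3, Rian and Mirg was higher throughout, at 2.55, 1.04, 1.26 and 0.79. Peg3 with Zim1 and Igf2 with Igf2os were higher too. On the lower side lay Foxl2 with Foxl2os, at -1.51 and -1.89, and Cldn6 with Cldn9. Itm2a and Tbx22 were the pair of opposite direction, at 1.34 and -1.09.

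Members of the eye and forebrain list were lower in LM where they passed. Of 16 tested members 5 fell and 0 rose, and 10 more lay too low to be tested. Lhx2, a LIM homeobox gene of the eye and olfactory region, had intensities of 20.4 and 17.5 in LM and 189 and 221 in UM, a difference of -2.22 ± 0.22. Fezf1, a zinc finger gene of the olfactory system, had 10.1 and 1.41 against 127 and 91.3, a difference of -1.90 ± 0.18. Otx1 differed by -1.53 ± 0.23 and Pax6, the eye homeobox gene, by -1.44 ± 0.18. The other 4 probe sets of Pax6 differed by -1.21 to -0.09, and Pax6 did not pass as the mean of its probe sets, at -0.63. With Otx2 these were the fallers. LM lay near background for each of them, and the list median was -0.16. Counts of decreases were 4 without the UM mutant array and 1 at a pseudocount of 1.

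The olfactory placode list had 3 lower and 3 higher members among 16 tested. Sp8, Neurod1 and Neurog1 were lower, and the higher ones were Dlx5, Dlx3 and Ebf3, of which the Dlx genes are also on the lower jaw list. Without the UM control array 1 of the 3 increases passed. Zic1, a zinc finger gene of midline tissue, was picked after its value was seen. It had 24.8 and 25.2 in LM and 130 and 109 in UM, a difference of -1.40 ± 0.17. Among 6 tested genes of pituitary and oral ectoderm, Sox2 and Sox3 fell, by -1.65 ± 0.20 and -0.87 ± 0.19, and Pitx1 rose. Sox3 missed the threshold without any 1 of the 4 arrays.

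In the neuron list 5 of 28 tested members fell in LM and 0 rose, with a median of -0.55. Over all genes tested 0.812% fell. Of the 5, 0 passed in all 18 alternatives. Stmn2, a microtubule regulator of neurons, had intensities of 24.3 and 53.7 in LM control and mutant and 386 and 325 in UM, a difference of -2.47 ± 0.27. Neurod1, a neurogenic helix-loop-helix gene, had 26.2 and 47.1 against 272 and 201, a difference of -1.97 ± 0.25. Elavl4, a neuronal RNA-binding protein gene, had 17.4 and 48.2 against 188 and 127, a difference of -1.57 ± 0.29. Tubb3 and Neurog1 differed by -1.26 ± 0.23 and -1.17 ± 0.19, and the other probe set of Neurog1 by -0.22. In Stmn2, Neurod1 and Elavl4 the LM mutant was the higher LM array and the UM mutant the lower UM array.

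The neuron list had a median difference of -0.77 in controls and -0.16 in mutants. Summed intensities were 1553 and 2162 in LM and 3909 and 2681 in UM. Without the LM mutant array 9 members were lower, without the LM control 2, without the UM control 2, without the UM mutant 4 and at a pseudocount of 1 there was 1. Insm1, Nhlh1 and Nhlh2, factors of early neurons outside the list, were lower as well, at -1.81 ± 0.21, -1.32 ± 0.18 and -1.51 ± 0.24. The part of neurons in other differences was not tested.

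Surface epithelium had 4 lower members of 24 tested. Epcam differed by -1.11 ± 0.21, Cldn6 by -1.10 ± 0.25, Cldn3 by -0.88 ± 0.18 and Krt8 by -0.78 ± 0.17. The other probe set of Epcam differed by -0.26. Krt15, a basal keratin gene, had 121 and 79.2 in LM and 29.9 and 53.3 in UM and did not pass. The list's summed intensities were 3809 and 4179 in LM and 5002 and 5394 in UM. The calls were few under other settings, with 1 without the LM control, 2 without the LM mutant, 1 without the UM control and 0 without the UM mutant array. Among 13 genes of pharyngeal endoderm tested, Shh and Foxa1 rose, by 0.99 ± 0.20 and 0.94 ± 0.21, and Sox2 and Sox3 fell. The other probe set of Shh differed by -0.07, and neither Shh nor Foxa1 passed without the UM control array.

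Other cell types differed little between the origins. Glia and crest stem genes had 1 of 12 tested lower, Sox2, which is also a placode gene, and a median of -0.17. Fabp7, a glial fatty acid binding protein gene, had 95.2 and 113 in LM and 361 and 146 in UM, so that the UM control stood above the other arrays. Endothelium had 0 of 17 called, erythroid genes 0 of 12 and macrophage and leukocyte genes 0 of 17 by limma, with medians of 0.04, -0.17 and -0.08. With 1.55% of all genes tested called, counts of 0 in lists this short do not set these genes apart. Endothelial intensities summed to 1816 to 1965 in LM and 1778 to 1876 in UM.

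Signalling genes changed one by one. In retinoic acid metabolism Aldh1a3, a retinoic acid synthesis enzyme gene, had 21.2 and 28.7 in LM and 227 and 221 in UM, a difference of -2.17 ± 0.19, and its other 2 probe sets differed by -1.41 and -1.35. Crabp1, a retinoic acid binding protein gene, had 1417 and 1064 against 3286 and 4016, a difference of -1.54 ± 0.24. These were the 2 of 14 tested members that passed. Rarb, a retinoic acid receptor gene, had 293 and 287 against 496 and 501, a difference of -0.72 ± 0.19 with adjusted p = 0.10 by limma.

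In WNT signalling 3 of 33 tested genes were lower and 0 higher, where 0.812% of all genes tested were lower. Wnt5a, a ligand of outgrowing prominences, had 607 and 529 in LM and 1241 and 1194 in UM, a difference of -1.06 ± 0.18. Its other 3 probe sets differed by -1.34 to -0.95. The secreted inhibitors Wif1 and Dkk1 differed by -1.12 ± 0.20 and -1.01 ± 0.20. Lef1, a nuclear effector, lay at -0.73 ± 0.19 with adjusted p = 0.11 by limma. Without the UM control array 0 of the 3 passed, without the UM mutant 1 passed, and without either LM array 2 passed.

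BMP signalling had 2 of 23 lower, the target gene Id4 at -1.92 ± 0.20 and the ligand Bmp7 at -0.98 ± 0.20. Id4 had 103 and 107 in LM and 511 and 459 in UM and passed in every alternative. Bmp4, the ligand of the distal prominences, had 428 and 435 against 666 and 682, a difference of -0.61 ± 0.24 that did not pass. Bmp7 passed without the LM mutant but not without any other LM or UM array. Shh was the 1 of 12 hedgehog genes that passed. Its receptor and target Ptch1 had 1445 and 1445 against 996 and 1046, a difference of 0.49 ± 0.17 with adjusted p = 0.31 by limma.

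The Notch list had 1 of 17 called, Hey1, a target gene, at -1.01 ± 0.21. The semaphorin and Eph list had 1 of 32, the ligand gene Sema3e at -0.92 ± 0.19. With 1.55% of all genes tested called, counts of 1 in lists of this length do not set the lists apart. Hey1 missed the threshold without either mutant array, and Sema3e without the LM control, the UM control or the UM mutant array. FGF signalling had 0 of 16 called, near the 1.55% of all genes tested. Fgf8, the ligand of the facial ectoderm, had 3.03 and 10.9 in LM and 27.4 and 40.5 in UM, a difference of -0.76 ± 0.18 with adjusted p = 0.061 by limma. Dusp6, a feedback target of FGF, lay at -0.66 ± 0.19 with adjusted p = 0.18 by limma. Endothelin signalling had 0 of 11 called, also near that share. Ednrb, a receptor gene, lay at -0.22 ± 0.24 and Edn3, a ligand gene, at 0.52 ± 0.18.

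**Figure D3:**
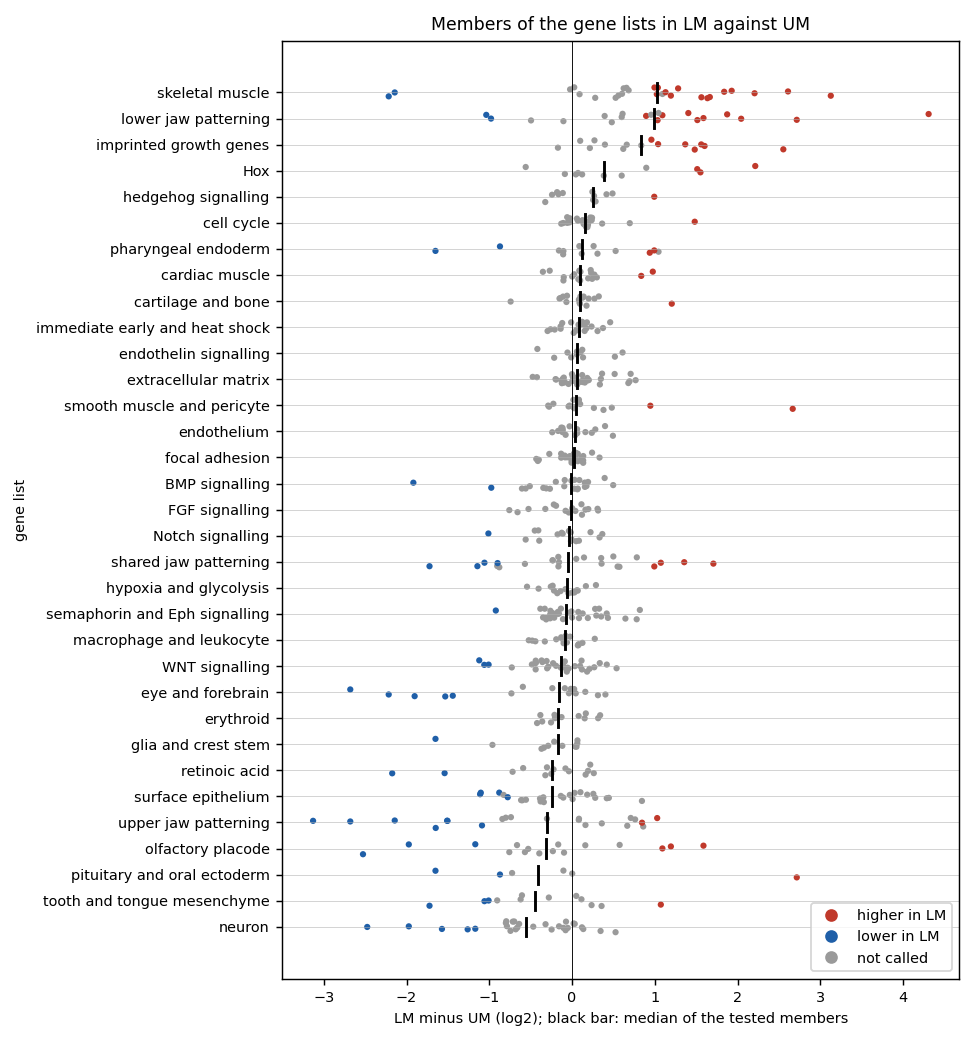
Difference LM minus UM on the log2 scale for every tested member of the 33 gene lists, with a black bar at each list's median; lists are ordered by that median and points are coloured by the call. Skeletal muscle (median 1.02), lower jaw patterning (0.99) and imprinted growth genes (0.84) lie farthest to the right, and neuron genes (-0.55) farthest to the left.

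Matrix, cartilage and adhesion genes differed little. Extracellular matrix had 0 of 34 called, near the 1.55% of all genes tested, and a median of 0.06. Tnc, the tenascin C gene, had 225 and 160 in LM and 104 and 92.9 in UM, a difference of 0.77 ± 0.20 with adjusted p = 0.095 by limma. In the cartilage and bone list Col9a1, a cartilage collagen gene, had 1565 and 1576 against 711 and 619, a difference of 1.20 ± 0.21, and it was the 1 of 18 that passed. Without the UM control or the UM mutant array Col9a1 missed the threshold. Focal adhesion genes, the partners of FAK, had 0 of 27 called, near the 1.55% of all genes tested, and a median of 0.02.

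Housekeeping programmes were near 0. Hypoxia and glycolysis had 0 of 16 called with a median of -0.06, and immediate early and heat shock genes 0 of 21 with a median of 0.08. Such counts are near the 1.55% called over all genes tested. Of 24 cell cycle genes Cdkn1c alone passed. In the tooth and tongue list 1 of 12 was higher, Barx1, and 3 were lower, Tfap2b, Pax9 and Dkk1.

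The differences between LM and UM had the same sign in controls and mutants for every called gene. None of the 210 had overlapping LM and UM arrays, and 34.8% of all genes tested had none either. Arrays that do not overlap force the same sign in both genotypes. A call in this design nearly requires both, so the agreement follows from the selection. The median size of the difference was 1.25 in controls and 1.15 in mutants. The control difference was the larger for 121 genes and the mutant difference for 89. The gap between them reached 2-fold in 7 of the 210 called genes (3.33%) and in 665 of all genes tested (4.91%).

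The widest gaps among called genes are a description, since each combination of origin and genotype has 1 array and no test is possible. Dlx1 differed by 2.01 in controls and 0.70 in mutants, with the LM control at 680 and the LM mutant at 403. Igf2 differed by 2.09 in controls and 1.03 in mutants. Zfp703, a zinc finger gene, differed by 2.0 and 0.93. Its other 2 probe sets had mean differences of -0.22 and 0.56, and it missed the threshold in 6 of 18 alternatives. Elavl4 differed by -2.16 in controls and -0.99 in mutants, and Cldn11, a claudin gene, by -2.06 and -1.0. For each of these 5 genes the difference was smaller in mutants and kept its sign, as a call nearly requires.

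Taken in 1 genotype alone, 109 genes were at least 2-fold higher and 188 at least 2-fold lower in LM on the control arrays, and 103 and 113 on the mutant arrays. On both sets 48 genes were 2-fold higher and 66 2-fold lower. These counts have no replicate check.

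**Figure D4:**
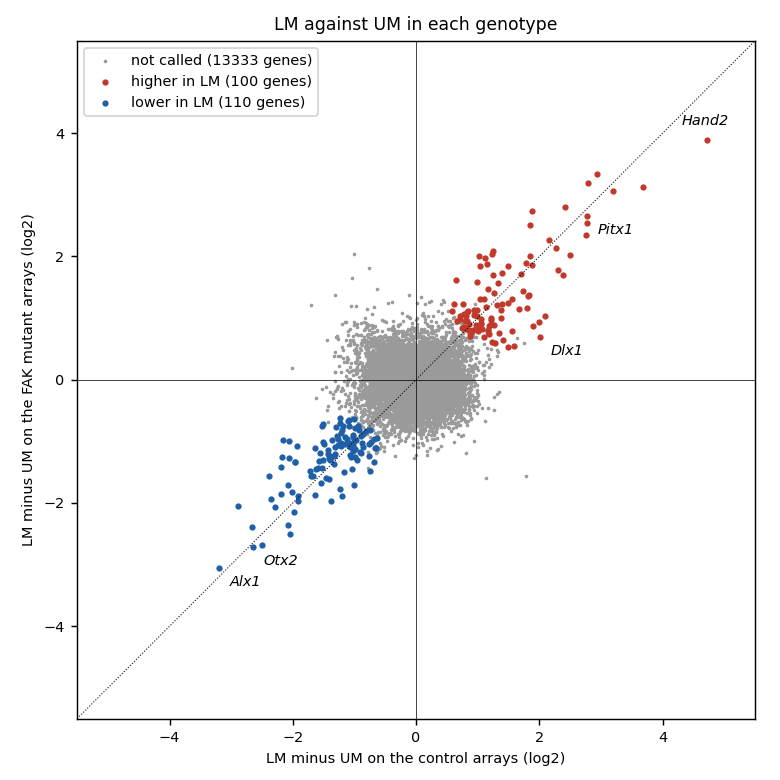
Difference LM minus UM on the control arrays (x axis) against that on the FAK mutant arrays (y axis), log2 scale, for the 13543 genes tested; the dotted line marks equal differences. The 100 genes called higher (red) and the 110 called lower (blue) lie in the quadrants of equal sign, as a call in this design nearly requires. Hand2 and Alx1 are at the ends, and Dlx1 is below the line.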

How the data were processed

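The deposited values are array intensities on a linear scale, and the software the authors used was not stated in the labels. The mean between the 2nd and 98th percentiles was equal on all 8 arrays, so no further scaling was applied. The number of arrays limits the precision. The platform annotation gave 1 gene to 34945 of 45101 probe sets and several to 932, and its names matched the GRCm38.p6 gene table with 0 updates. Each of 18193 genes was read from its brightest probe set. Genes entered the test when 2 or more of the 8 arrays exceeded 19.4, the 40th percentile of all values. On log2(intensity + 32), limma 3.58.1 (R 4.3.3) fitted origin and genotype over all 8 arrays, leaving 3 residual degrees of freedom beside 9.18 from the prior. The contrast was the mean of LM minus the mean of UM. The script was tested on simulated data. Members and the 33 gene lists (651 genes, 40 with no probe set of their own) were chosen with earlier results of these data known, so lists carry counts and medians and no test. Named genes were the 15 largest called differences each way, all members of the jaw lists, up to 4 of each other list (all called where under 7), Ptk2 and the 5 called genes with the widest gap between genotypes. Further called members of lists, genome neighbours, Insm1, Nhlh1, Nhlh2 and Zic1 were chosen after their values were seen. The 18 alternatives changed pseudocount, filter, normalization, probe set rule, arrays, genotype term or variance prior.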

Additional observations from a re-analysis of the deposited data

Results flagged for a closer look

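Pdk1, which encodes a kinase that inhibits pyruvate dehydrogenase, was the named gene whose difference between LM and UM had opposite signs in the genotypes with a size of at least 0.5 in each. It was -1.45 on the control arrays and 0.64 on the mutant arrays, from intensities of 185 in LM control, 565 in LM mutant, 561 in UM control and 351 in UM mutant. The difference between the genotypes was not tested, and its other 3 probe sets had mean differences of -0.02 to 0.03.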

How the results depend on the processing

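Of the 210 calls, 33 passed in all 18 alternatives, 17 higher and 16 lower. Over the 18, none of the 86 named called genes reversed its sign and 23 passed throughout. The counts were 36 higher and 28 lower, 64 in all, at a pseudocount of 1, and 64 genes were higher without a filter on low values. Leaving out 1 of the 4 arrays gave 50 to 84 genes higher, 61 to 143 lower and 111 to 227 in all. These were 130 without the LM control, 227 without the LM mutant (84 higher, 143 lower, against 100 and 110), 111 without the UM control and 117 without the UM mutant. The lone array of an origin was then assumed to vary like the others. The genotype term of the model is a factor of the experiment and not a block of matched replicates. Without the genotype term 99 genes were higher and 119 lower. Labels number every array 1, so no paired analysis was possible by number. On the 4 LM and UM arrays alone 85 were higher and 96 lower. Without the p75 pair 72 were higher and 89 lower. For the other alternatives the counts stayed within 1.5 times. Many low genes were near background, with both UM arrays under 19.4 for 29 of the higher genes and both LM arrays for 28 of the lower ones.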

Other observations

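Some called genes lay outside all of the gene lists, and the following were picked from them after their values were seen. Meox1 and Meox2, homeobox genes of the somites, were higher in LM by 1.16 ± 0.18 and 1.32 ± 0.19 (moderated SE, n = 2 arrays per origin). Scx, a tendon progenitor factor, had intensities of 47.5 and 35.8 in LM control and mutant and 12.9 and 3.21 in UM, a difference of 0.89 ± 0.19. Itm2a, a membrane protein gene of muscle and cartilage precursors, had 6084 and 6231 against 2503 and 2333, and Tshz1, a zinc finger gene, 1066 and 1219 against 430 and 352. Hgf, the growth factor that guides migrating muscle precursors, was higher by 0.79 ± 0.17. On the lower side Sult1e1, an estrogen sulfotransferase gene, had 3.03 and 0.907 against 77.5 and 88.9, and Hpgd, a prostaglandin-degrading enzyme gene, 187 and 186 against 683 and 615. Pantr1, a noncoding transcript beside Pou3f3, had 120 and 121 against 285 and 333, a difference of -1.16 ± 0.19 that passed, where Pou3f3 itself at -0.80 did not.

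Tested 1 probe set at a time, an alternative chosen after seeing the data, 237 of 31057 probe sets were called (0.763%), 104 higher and 133 lower. Among the 5415 of them without a single gene name 17 were called (0.314%), 6 higher and 11 lower. The widest had intensities of 258 and 253 in LM control and mutant and 6.80 and 13.6 in UM, a difference of 2.77 ± 0.18.

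Over all genes tested, 7 differed 2-fold in opposite directions in the genotypes: Jpt1, Kpnb1, Lpar4, Nefm, Rps27, Runx1t1 and Zfp991. Nefm, a neurofilament gene, had -1.31 in controls and 1.38 in mutants, and Lpar4, a lysophosphatidic acid receptor gene, -1.0 and 2.04. With 1 array for each origin and genotype these values carry no test.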
